A study of Homo sapiens with 6 samples.

Results

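The mRNAs of 7 RNA tailing enzymes were followed: TUT1, TUT4 (ZCCHC11), TUT7 (ZCCHC6), TENT2 (PAPD4), TENT4A (PAPD7), TENT4B (PAPD5) and MTPAP. They were chosen by name from among the terminal uridylyl transferases and non-canonical poly(A) polymerases of human cells, of which the TENT5 family is read below in a list of other tailing enzymes, and make up 7 of the 63190 gene identifiers and 67 of the 207167 transcripts quantified. The RNA-seq compared 3 libraries of HEK293 cells that overexpress the D391N mutant of DIS3L2 with 3 control libraries. HEK293 is a human embryonic kidney line, used here in its T-Rex form, in which doxycycline induces an integrated construct. D391N replaces an aspartate of the catalytic site, and the mutant protein binds RNA without degrading it. The construct adds a Flag tag to the C-terminus. Each condition was 1 cell line, so the construct and the line cannot be told apart, and whether the control cells received doxycycline is not given in the sources used here. The labels number the libraries without stating that they came from separate cultures, so p-values measure the spread between these libraries, which may be technical. The authors pooled 3 RNA-seq libraries in 1 lane without naming them. Whether lane or preparation coincided with condition is therefore not known, and a difference from either could not be told apart from the condition.

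Terminal transferases add nucleotides to RNA 3′ ends without a template. TUT4 and TUT7 are cytoplasmic enzymes that add uridines to pre-let-7 and to mRNAs with short poly(A) tails, and DIS3L2 is the exonuclease that degrades the oligouridylated products. TUT1 is a nuclear enzyme that uridylates U6 snRNA. TENT2 (GLD2) is a cytoplasmic poly(A) polymerase that extends short poly(A) tails and adenylates some miRNAs, whereas TENT4A and TENT4B add adenosines to nuclear RNAs and mixed tails to mRNAs. MTPAP adds the poly(A) tails of mitochondrial mRNAs.

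The transcript that took the largest part of TUT4 and of TUT7 carried splice junctions that no other annotated transcript of its gene has. These junctions are shown because they are what separates the isoforms in short reads. Each line gives 30 bases of coding exon on either side of a junction, read on the minus strand of GRCh37, with the downstream exon in capitals. The TUT4 junction spans the intron chr1:52961188-52975267 and leaves out 1 coding exon of 178 nt at chr1:52962678-52962855, and the transcript is annotated as a target of nonsense-mediated decay. The TUT7 junctions span chr9:88943408-88957989 and chr9:88932192-88937787 and leave out 4 exons of 369 nt and 3 exons of 339 nt that the longer TUT7-206 contains.
TUT4-210 junction: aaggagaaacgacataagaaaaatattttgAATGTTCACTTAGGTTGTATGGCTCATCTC
TUT7-205 upstream junction: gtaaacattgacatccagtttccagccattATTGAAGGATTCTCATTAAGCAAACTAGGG
TUT7-205 downstream junction: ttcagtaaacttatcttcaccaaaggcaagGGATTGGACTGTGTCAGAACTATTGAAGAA

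DIS3L2 levels in RPKM (reads per kilobase of transcript, scaled to library size) were 370, 467 and 513 with D391N and 11.8, 12.9 and 14.6 in the controls, with reads of the construct included. Here and in the following, the values of a condition are in the order of replicates 1 to 3. This was a log2 fold change of 5.08 ± 0.18 (SE; limma, adjusted p = 0.00027). Relative to control replicate 2, the depth of the other libraries was between 0.626 and 0.947. Transcripts under 200 nt held 2.43%, 0.34% and 1.52% of reads with D391N and 3.18%, 3.08% and 2.89% in the controls. Every D391N library was thus below every control in this share. The D391N libraries differed widely from each other. Over 12905 well-measured transcripts, the median squared difference divided by the posterior variance was 7.62 and 8.14 between D391N replicate 1 and replicates 2 and 3, and 10.9 between replicates 2 and 3. The controls differed from each other by 1.51 to 2.99 on this measure. D391N replicate 1 was nearest to the controls, at 4.39 to 4.92, whereas replicates 2 and 3 were at 8.75 to 14.7 from them. The largest numbers of calls came when D391N replicate 1 was left out, and values without it are given beside the results, with the other libraries left out in turn. Of the 5 markers of HEK293 cells, VIM, KRT8, KRT18 and PAX2 passed the level filter and NEFM was under 1 RPKM. The 3 of the 4 with the highest levels were lower in every D391N library than in every control, beside 20.7% of all genes. KRT8 had the lowest adjusted p, at 0.091. Leaving out D391N replicate 1 gave KRT8 an adjusted p of 0.039, and leaving out any 1 of the other libraries gave 0.12 to 0.31. Of the markers of blood, liver, connective tissue and endothelium (PTPRC, ALB, COL1A2, CDH5), PTPRC and CDH5 had an estimated 1.1 reads or fewer in every library. Here and below, estimated reads were taken from the posterior variance, which also holds assignment error. Transcripts that are hard to tell apart can thus have more reads than estimated. PTPRC was still listed at 1.34 to 1.77 RPKM, summed over 14 transcripts, and passed the level filter. ALB had 0.4 to 3.5 reads and COL1A2 10.2 to 26.2 reads, with overlapping conditions. The part of this in the results below was not tested.

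TUT4 was the most abundant of the 7 enzymes, and its summed level was higher with D391N. The RPKM summed over its 21 transcripts was 71.0, 121.0 and 120.7 with D391N and 67.7, 66.2 and 68.4 in the controls. Replicates 2 and 3 lay well above the controls, whereas replicate 1 was next to them, and the conditions did not overlap. This lack of overlap depended on the short transcript TUT4-217, described below. It made up 8.24, 31.4 and 26.4 RPKM of the sum with D391N and 2.64, 0.833 and 0.996 RPKM in the controls. Without it D391N replicate 1 would lie below every control. For the full sum, the log2 fold change was 0.59 ± 0.23 (SE, n = 3 and 3), which did not pass the threshold of 0.05 (limma, adjusted p = 0.20). In RNA of whole cultures, a different share of cells and a different amount of RNA per cell cannot be told apart. An exact permutation test gave p = 0.1, the smallest that 3 libraries against 3 allow. Without D391N replicate 1, TUT4 passed the test with a log2 fold change of 0.84 ± 0.13 (adjusted p = 0.023), in a comparison in which 10.9% of all genes were called. It was 0.46 ± 0.24 without D391N replicate 2 (adjusted p = 0.33) and 0.46 ± 0.26 without replicate 3 (adjusted p = 0.34), and TUT4 did not pass the test without any 1 of the controls (adjusted p of 0.40 to 0.42). PRPF38A, a splicing factor gene on the opposite strand that overlaps TUT4, was at 61.4, 48.0 and 68.3 RPKM with D391N and 57.6, 53.0 and 44.2 RPKM in the controls, so that its conditions overlapped. Whether the authors' counting used strand is not given in the sources used here.

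TUT7, the paralog of TUT4, had about the same summed level in both conditions. It was at 21.0, 27.04 and 24.3 RPKM with D391N and at 24.0, 20.4 and 23.5 RPKM in the controls, with a log2 fold change of 0.08 ± 0.16 (limma, adjusted p = 0.78). The number of reads behind it gave another picture, because its transcripts differ in length. RPKM multiplied by transcript length, a count of reads scaled to library size, summed to 84.7, 117.2 and 107.0 for TUT7 with D391N and to 78.2, 79.1 and 82.1 in the controls. On this scale every D391N library was above every control, as in 10.1% of all genes, and the log2 fold change was 0.35 (limma, adjusted p = 0.17). For TUT4 these scaled reads were 170, 256 and 270 with D391N and 173, 181 and 179 in the controls, where D391N replicate 1 lay below the controls.

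TUT1 was the least abundant enzyme, at 2.16, 1.79 and 2.02 RPKM with D391N and 2.78, 2.80 and 2.57 RPKM in the controls. Every D391N library was below every control. Its log2 fold change of -0.43 ± 0.20 did not pass the test (limma, adjusted p = 0.25). Its estimated reads, which also hold assignment error, were 11 to 23 per D391N library and 25 to 62 per control. Of its 7 transcripts, 5 had under an estimated 3 reads in every library. BitSeq lists transcripts without reads at levels above 0, so part of the summed level is not supported by reads. In addition, 1471 of the 2777 stretches of 50 nt in the main transcript, TUT1-202, were shared with an overlapping readthrough gene, ENSG00000255508, itself listed at 0.39 to 1.16 RPKM.

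Among the poly(A) polymerases, TENT4B was higher with D391N and the others overlapped between the conditions. TENT4B was at 20.1, 24.5 and 26.8 RPKM with D391N and 18.1, 18.6 and 16.9 RPKM in the controls. All 3 D391N libraries were above the controls, with a log2 fold change of 0.40 ± 0.16 that did not pass the test (limma, adjusted p = 0.20). It was 0.52 without D391N replicate 1 (adjusted p = 0.070), 0.38 without replicate 2 and 0.31 without replicate 3 (adjusted p of 0.28 and 0.31), and 0.10 when only protein coding transcripts were summed. In scaled reads the conditions overlapped, at 134, 119 and 187 with D391N and 127, 125 and 126 in the controls, with D391N replicate 2 below the controls (log2 fold change 0.20, adjusted p = 0.51). Its paralog TENT4A was at 36.7, 41.0 and 46.5 RPKM with D391N and 42.4, 44.5 and 48.6 RPKM in the controls. TENT4A differed by a log2 fold change of -0.13 ± 0.15 (adjusted p = 0.63), and D391N replicate 1 had the lowest level.

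TENT2 lay on both sides of the controls. It was at 35.6, 43.5 and 58.2 RPKM with D391N, beside controls at 45.5, 42.8 and 46.8 RPKM, and the log2 fold change was -0.0045 ± 0.20 (limma, adjusted p = 0.99). MTPAP was at 23.9, 18.8 and 18.9 RPKM with D391N and 19.7, 22.1 and 17.3 RPKM in the controls. Its log2 fold change of 0.06 ± 0.17 (adjusted p = 0.86) is a sum over transcripts that differed in opposite directions, given below. The 7 enzymes together summed to 210.4, 277.6 and 297.3 RPKM with D391N and to 220.2, 217.3 and 224.0 RPKM in the controls.

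**Figure D1:**
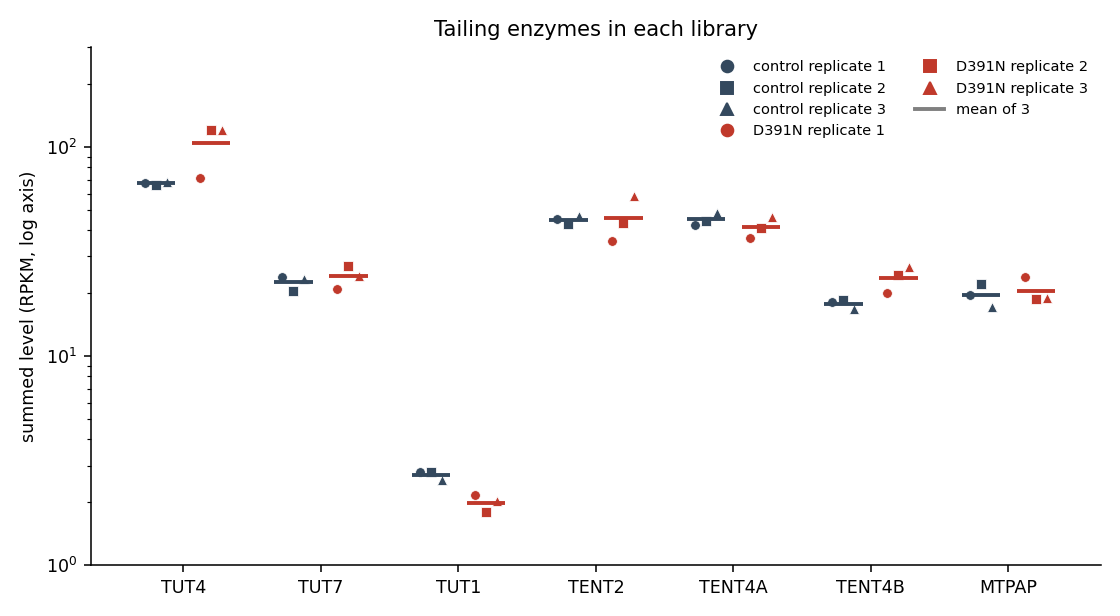
Summed level of each enzyme in each library, in RPKM on a log axis. Symbols stand for replicates, colours for conditions and bars for the mean of 3 libraries. TUT4 in D391N replicate 1 (71.0 RPKM) lies beside the controls, while D391N replicates 2 and 3 lie near 121 RPKM, and the conditions do not overlap for TUT4, TENT4B and TUT1.

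None of the 7 enzymes passed the gene-level test, in which 0.140% of 20714 genes were called. TUT4 and TENT4B, 2 of the 7 (28.6%), had an unadjusted p under 0.05, beside 22.7% of all genes. Every D391N library was above every control for 2 of the 7 (28.6%), beside 10.5% of all genes, and below every control for 1 of the 7 (14.3%), beside 20.7% of all genes. In scaled reads TUT7 alone was above, and TUT1 and TENT4A were below every control, as 24.0% of all genes were. The median log2 fold change was 0.06 over the 7 enzymes and -0.09 over all genes tested. Centring each library on its median adds 0.22 to every log2 fold change. TENT2 and TENT4A then had positive values (0.21 and 0.09), and TUT4, TUT7, TENT4B, MTPAP and TUT1 kept their direction.

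**Figure D2:**
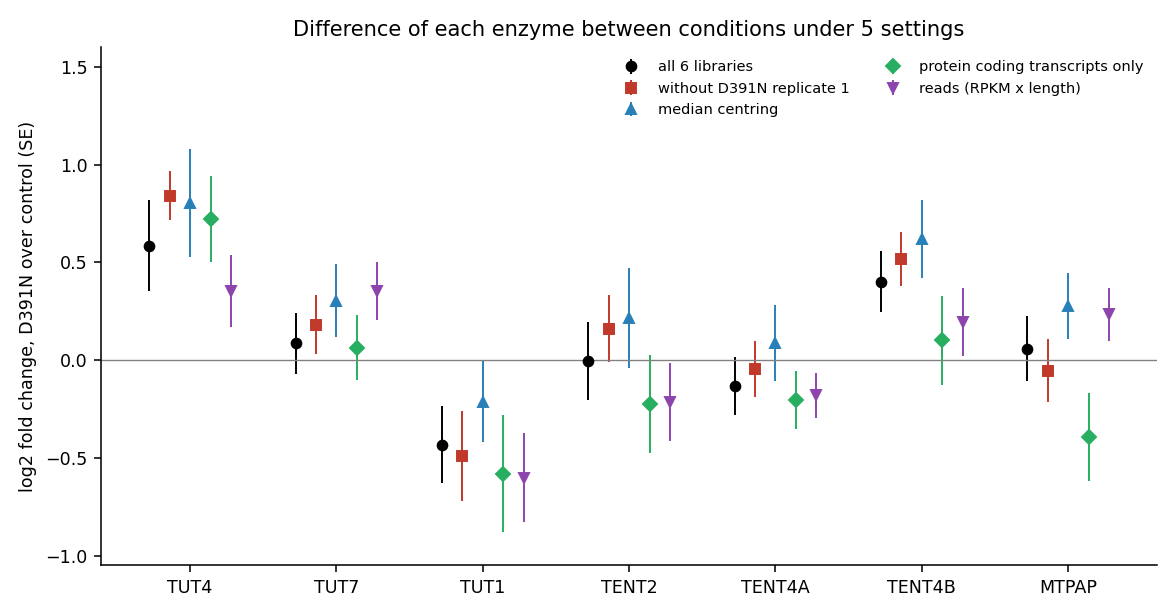
Log2 fold change (D391N over control, with SE) of the 7 enzymes under 5 settings. TUT4 and TENT4B are above 0 and TUT1 is below 0 under all 5, whereas MTPAP is at -0.39 when only protein coding transcripts are summed and at 0.23 in scaled reads (RPKM times length).

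The order of the levels was taken per length, in RPKM over all 6 libraries. The means were 85.8 RPKM for TUT4, 45.4 for TENT2, 43.3 for TENT4A, 23.4 for TUT7, 20.8 for TENT4B, 20.1 for MTPAP and 2.35 for TUT1. TUT4 exceeded TENT2, TENT4A exceeded TUT7, and MTPAP exceeded TUT1 in 6 of 6 libraries (two-sided exact sign-flip test, p = 0.031 each, the smallest it can give, and 0.0625 after adjustment over the 6 pairs of neighbours). TENT2 and TENT4A were not separated, with a mean log2 ratio of 0.06 ± 0.15 (SD, n = 6; exact p = 0.47). TUT7 exceeded TENT4B in 5 of 6 libraries (exact p = 0.12), and TENT4B exceeded MTPAP in 2 of 6 (exact p = 0.78). The place of TENT2 depended on transcripts without a coding frame. Retained-intron transcripts made up 55.9% ± 2.3 of its summed RPKM with D391N and 50.9% ± 3.0 in the controls (SD, n = 3), and when protein coding transcripts alone were summed TENT2 lay below TENT4A, with a mean log2 ratio of -1.95.

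Of the 67 transcripts of the 7 genes, 41 had a mean of at least 1 RPKM and were tested. Under an estimated 3 reads in every library were 15 of the 67. None passed the transcript-level test (limma, lowest adjusted p = 0.093), in which 0.0604% of 54671 transcripts were called, and 9 of the 41 had an unadjusted p under 0.05, beside 17.6% of all transcripts. For 6 of them (14.6%) every D391N library was above every control, beside 10.1% of all transcripts, and for 7 (17.1%) every D391N library was below, beside 15.6%. With a mean difference of at least 2-fold there were 3 above (7.32%, beside 4.91% of all transcripts) and 3 below (7.32%, beside 8.64%). These 6 were TUT4-217, TENT4B-204 and MTPAP-205 above, and TUT4-201, TUT7-202 and TENT2-204 below. Without D391N replicate 1, 5 of 42 transcripts were called (11.9%, beside 9.08% of all transcripts), 2 of them higher and 3 lower. None was called with any 1 of the other 5 libraries left out (lowest adjusted p = 0.17).

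The largest difference was in TUT4-217 (ENST00000524582), a model of 539 nt with 3 exons at the 5′ end of the gene, at chr1:52991722-53019159, of which 231 nt are coding. It was at 8.24, 31.4 and 26.4 RPKM with D391N and at 2.64, 0.833 and 0.996 RPKM in the controls. All D391N libraries were above all controls, and the controls had an estimated 1.0 to 4.9 reads. This was a log2 fold change of 3.76 ± 0.63 (limma, adjusted p = 0.093), and 4.36 without D391N replicate 1 (adjusted p = 0.012). Only 29 of its 490 stretches of 50 nt are found in no other annotated transcript, so the level depends on how BitSeq divided reads between the TUT4 isoforms.

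The 2 most abundant TUT4 transcripts followed the gene as a whole. TUT4-210 (ENST00000473856), whose junction is given above, was at 17.6, 39.3 and 37.5 RPKM with D391N and at 17.7, 17.7 and 20.8 RPKM in the controls. It took 29.5% ± 4.1 of the summed TUT4 level with D391N and 27.8% ± 2.3 in the controls (SD, n = 3; exact permutation test, p = 0.6). TUT4-220 (ENST00000528642), which includes the 178-nt exon and encodes 3609 nt of coding sequence, was at 13.1, 22.7 and 22.7 RPKM with D391N and at 12.4, 12.4 and 7.91 RPKM in the controls. On the log2 scale TUT4-210 differed by 0.66 ± 0.36 and TUT4-220 by 0.82 ± 0.33 (limma, adjusted p of 0.37 and 0.27). TUT4-210 passed the test without D391N replicate 1, at 1.04 (adjusted p = 0.043).

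TUT4-201 (ENST00000257177), a full-length transcript of 30 exons, was lower with D391N. It was at 1.77, 0.34 and 0.81 RPKM with D391N and at 2.29, 2.30 and 3.38 RPKM in the controls, with a log2 fold change of -1.58 ± 0.56 (limma, adjusted p = 0.23; -2.10 and 0.046 without D391N replicate 1). The other full-length transcript, TUT4-204 (ENST00000371544), named after its values were seen, was at 3.92, 3.72 and 5.35 RPKM with D391N and at 3.77, 4.18 and 5.62 RPKM in the controls, which overlap. Only 47 and 55 stretches of 50 nt are particular to TUT4-201 and TUT4-204.

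**Figure D3:**
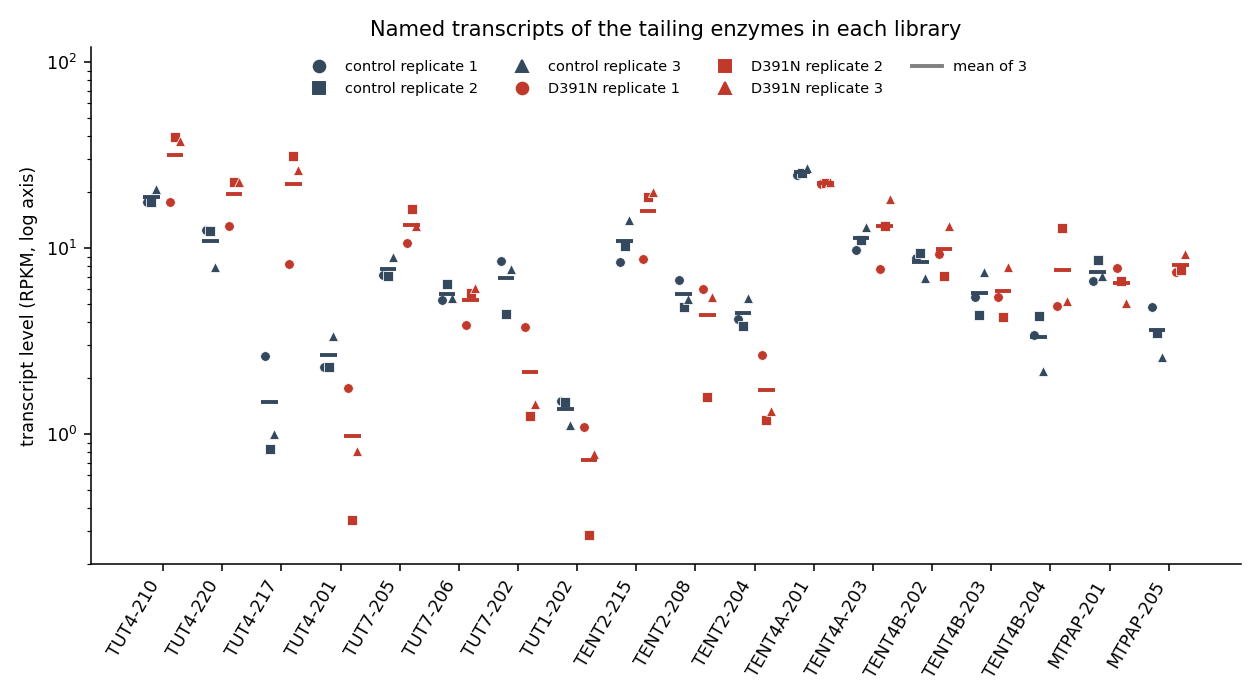
Level of the 18 named transcripts in each library, in RPKM on a log axis, with symbols for replicates, colours for conditions and bars for the mean of 3 libraries. TUT4-217 has the largest difference, from 0.83 to 2.64 RPKM in the controls to 8.24 to 31.4 RPKM with D391N, where replicate 1 is nearest to the controls.

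The division of TUT7 between its transcripts differed between the conditions more than its summed level. TUT7-205 (ENST00000375960), which lacks the exons described above and has a coding sequence of 3777 nt in place of 4485 nt, was at 10.6, 16.2 and 13.2 RPKM with D391N and at 7.16, 7.07 and 8.95 RPKM in the controls. The log2 fold change of TUT7-205 was 0.76 ± 0.26 (limma, adjusted p = 0.22). Of its 4890 stretches of 50 nt, 138 are found in no other annotated transcript. Its share of the summed TUT7 level was 50.7%, 59.7% and 54.2% with D391N and 29.9%, 34.6% and 38.1% in the controls. The conditions did not overlap, the mean difference was 20.7 percentage points, and the exact permutation test gave p = 0.1, the smallest possible (0.35 after adjustment over the 7 enzymes). TUT7-206 (ENST00000375963), the full-length form, was at 3.88, 5.73 and 6.11 RPKM with D391N and at 5.27, 6.43 and 5.38 RPKM in the controls, with overlap. None of its 50-nt stretches is found in it alone.

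TUT7-202 (ENST00000375947), a model of 611 nt with 4 exons at chr9:88959785-88967621, was lower with D391N. It was at 3.79, 1.25 and 1.46 RPKM with D391N, on an estimated 1.3 to 9.2 reads, and at 8.57, 4.43 and 7.69 RPKM in the controls, on 20.0 to 64.7 reads. The log2 fold change was -1.74 ± 0.48 (limma, adjusted p = 0.18), and TUT7-202 passed the test without D391N replicate 1, at -2.22 (adjusted p = 0.025). The short TUT7-202 and the long TUT7-205 thus differed in opposite directions, and a sum of reads gives more weight to the long transcript than a sum of RPKM.

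**Figure D4:**
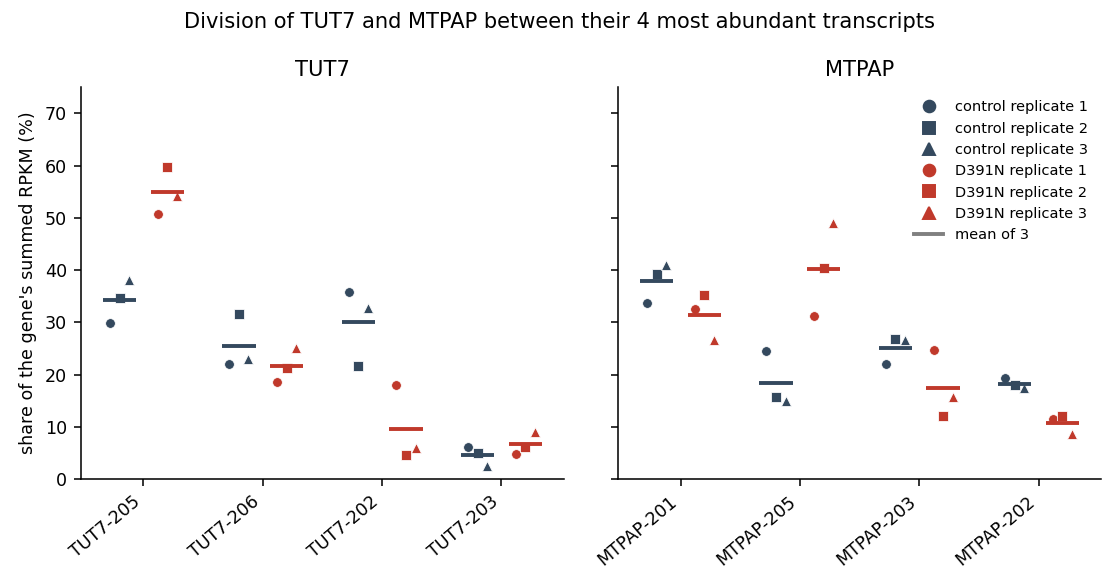
Share of the summed RPKM of TUT7 and MTPAP taken by their 4 most abundant transcripts in each library, in percent, with symbols for replicates and bars for the mean of 3 libraries. TUT7-205 takes 50.7% to 59.7% with D391N and 29.9% to 38.1% in the controls, and MTPAP-205 takes 31.3% to 49.1% with D391N and 15.0% to 24.6% in the controls.

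For MTPAP the largest difference in share was in MTPAP-205, and this share was not tested. The share of the leading transcript, MTPAP-201, overlapped between the conditions. It differed by -6.51 percentage points (exact permutation test, p = 0.2, and 0.35 after adjustment over the 7 enzymes). MTPAP-205 (ENST00000488290), a transcript of 17 exons at chr10:30601939-30663370 with no annotated coding sequence, was at 7.48, 7.58 and 9.28 RPKM with D391N and at 4.84, 3.49 and 2.58 RPKM in the controls. All D391N libraries were above all controls, with a log2 fold change of 1.17 ± 0.30 (limma, adjusted p = 0.16; 1.23 and 0.078 without D391N replicate 1). Of its 4054 stretches of 50 nt, 1063 were shared with the pseudogene GOLGA2P6, which was itself listed at 0.01 to 0.22 RPKM. The protein coding MTPAP-201 (ENST00000263063), which starts 3′ of the upstream exons of MTPAP-205, was at 7.77, 6.64 and 5.03 RPKM with D391N and at 6.65, 8.66 and 7.08 RPKM in the controls, with overlap (log2 fold change -0.21 ± 0.27, adjusted p = 0.70). Protein coding transcripts together took 68.6%, 59.4% and 50.9% of the summed MTPAP level with D391N and 75.2%, 83.9% and 85.0% in the controls. Their summed level had a log2 fold change of -0.39 (limma, adjusted p = 0.27).

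The transcripts of TENT2, TENT4A and TENT4B differed less regularly. The leading TENT2 transcript, TENT2-215 (ENST00000515298), is a retained-intron model of 465 nt and was at 8.78, 18.9 and 20.0 RPKM with D391N and at 8.36, 10.3 and 14.1 RPKM in the controls. The next, TENT2-208 (ENST00000505571), ranged from 1.59 to 6.03 RPKM with D391N and from 4.84 to 6.76 RPKM in the controls. TENT2-204 (ENST00000502269), a model of 705 nt and 2 exons at the 5′ end of the gene, was at 2.66, 1.19 and 1.33 RPKM with D391N, below the controls at 4.15, 3.82 and 5.41 RPKM. Its log2 fold change was -1.39 ± 0.37 (limma, adjusted p = 0.17), and -1.73 without D391N replicate 1 (adjusted p = 0.028).

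TENT4A-201 (ENST00000230859), the full-length coding transcript, was the best measured of all 67, with 1788 to 2930 estimated reads per library. It was at 22.2, 22.3 and 22.6 RPKM with D391N and at 24.6, 25.4 and 27.1 RPKM in the controls, so that the conditions did not overlap, at a log2 fold change of -0.20 ± 0.21 (limma, adjusted p = 0.64). The retained-intron TENT4A-203 (ENST00000511764) spread from 7.71 to 18.3 RPKM with D391N, around the controls at 9.79 to 12.9 RPKM. TENT4B-202 (ENST00000436909) and TENT4B-203 (ENST00000561678), the coding transcripts of TENT4B, overlapped between the conditions, with log2 fold changes of 0.19 ± 0.31 and 0.01 ± 0.34. TENT4B-204 (ENST00000562717), which has no annotated coding sequence, was at 4.86, 12.8 and 5.18 RPKM with D391N and at 3.40, 4.33 and 2.19 RPKM in the controls. Its log2 fold change of 1.08 ± 0.46 (adjusted p = 0.29) was 0.64 without D391N replicate 2, the library with the highest value.

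TUT1-202 (ENST00000308436), the leading TUT1 transcript with 2736 nt of coding sequence, was at 1.10, 0.29 and 0.78 RPKM with D391N and at 1.502, 1.48 and 1.11 RPKM in the controls. The highest D391N value was just under the lowest control. The log2 fold change was -0.97 ± 0.53 (limma, adjusted p = 0.38), and in D391N replicate 2 the transcript had an estimated 0.9 reads. Only 68 of the 2777 stretches of 50 nt in TUT1-202 are found in no other annotated transcript, so this estimate also holds assignment error.

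The other tailing enzymes, the partners of the 7 enzymes and the enzymes that trim 3′ ends were read from lists. Of the canonical and other tailing enzymes (PAPOLA, PAPOLB, PAPOLG, TENT5A to TENT5D and TRNT1), 5 of 8 passed the level filter and none of the 5 passed the test, with 1 at an unadjusted p under 0.05 (20.0%, beside 22.7% of all genes) and a median log2 fold change of 0.13. TENT5C, a poly(A) polymerase of mRNAs in the endoplasmic reticulum, was at 2.20, 1.53 and 2.395 RPKM with D391N and at 3.02, 3.07 and 3.88 RPKM in the controls, a log2 fold change of -0.69 ± 0.25 (limma, adjusted p = 0.18). Its relative TENT5A overlapped between the conditions (-0.72 ± 0.35, adjusted p = 0.27).

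Of the partners of the 7 enzymes (LIN28A, LIN28B, TRIM25, BICC1, QKI, CPEB1 to CPEB4, MTREX, ZCCHC7, ZCCHC14, PIP5K1A, LRPPRC and SLIRP), 14 of 15 were tested and none passed, with 3 at an unadjusted p under 0.05 (21.4%, beside 22.7% of all genes). In 5 of the 14 (35.7%, beside 10.5% of all genes) every D391N library was above every control and in 2 (14.3%, beside 20.7%) every D391N library was below. The median log2 fold change was 0.14. LIN28B, which binds pre-let-7 and recruits TUT4 and TUT7, was at 28.1, 31.9 and 30.7 RPKM with D391N and at 25.3, 22.3 and 15.8 RPKM in the controls (0.54 ± 0.20, limma, adjusted p = 0.18). Its paralog LIN28A, named after its values were seen, was at 0.62 to 1.28 RPKM with D391N and 0.85 to 1.03 RPKM in the controls. TRIM25, a ubiquitin ligase that binds pre-let-7 and aids its uridylation, was at 53.7, 35.6 and 40.5 RPKM with D391N and at 63.5, 56.4 and 68.3 RPKM in the controls (-0.55 ± 0.19, adjusted p = 0.17). TRIM25 was the 1 partner that passed the test without D391N replicate 1, at -0.72 (adjusted p = 0.040), and its adjusted p was 0.26 to 0.39 without any 1 of the other libraries. ZCCHC7 and MTREX, which form a nuclear complex with TENT4B, gave 0.37 ± 0.18 and 0.15 ± 0.17 on the log2 scale and were named after their values were seen.

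Of the 8 enzymes that trim 3′ ends (DIS3L2, ERI1, USB1, PARN, TOE1, PNPT1, SUPV3L1 and PDE12), all were tested and DIS3L2 alone passed, on reads that include the construct. Of the other 7, ERI1, PARN and PNPT1 were higher in every D391N library than in every control, beside 10.5% of all genes. PNPT1, the mitochondrial polynucleotide phosphorylase, was at 75.8, 84.3 and 67.2 RPKM with D391N and at 49.6, 52.3 and 37.3 RPKM in the controls (0.72 ± 0.18, limma, adjusted p = 0.11). PARN, the poly(A)-specific ribonuclease that removes tails added by TENT4B, and ERI1, an exonuclease of histone mRNA ends, gave 0.46 ± 0.20 and 0.38 ± 0.15 on the same scale (adjusted p of 0.22 and 0.19). These 3 were named after their values were seen.

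**Figure D5:**
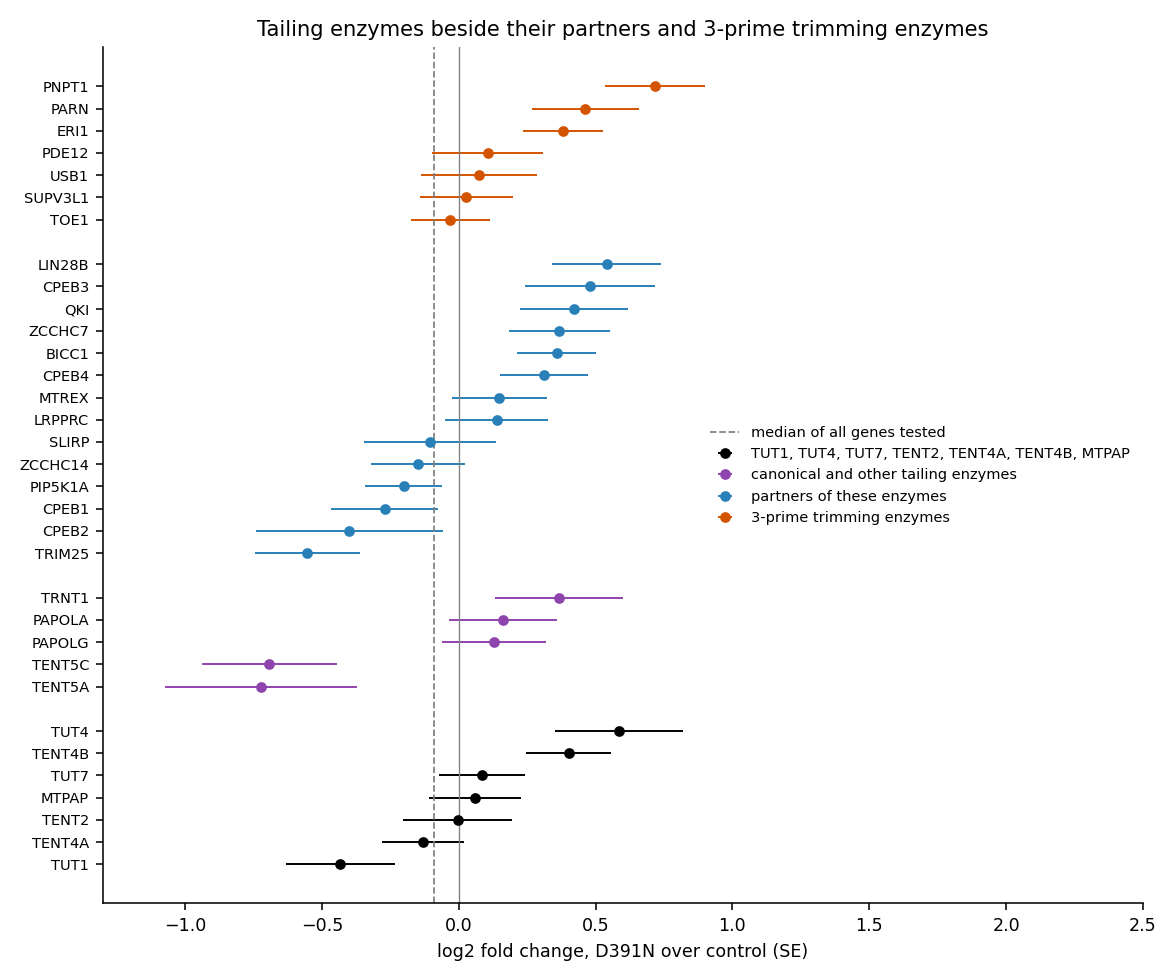
Log2 fold change (D391N over control, with SE) of the 7 enzymes and of the tested genes of 3 lists, without DIS3L2. The dashed line at -0.09 is the median of all 20714 genes tested. The values lie between -0.72 (TENT5A) and 0.72 (PNPT1), and none of these genes passed the test.

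The genes with the pattern most like each enzyme were found by the root mean square difference of log2 levels, each gene centred on its own mean over the 6 libraries, among 20713 other genes. PIK3R1, a regulatory subunit of phosphoinositide 3-kinase, was nearest to TUT4 at a difference of 0.025, where TUT4 itself deviated by 0.39. PIK3R1 was at 29.3, 50.4 and 51.0 RPKM with D391N and at 28.5, 27.3 and 29.7 RPKM in the controls. Like TUT4, it was near the controls in D391N replicate 1. BLM, a DNA helicase, came next at 0.054. AKAP11 and ZNF367 were nearest to TENT4B (0.031 and 0.032), and GORASP1 and STX17 to TUT1 (0.022 and 0.030). IRAK4 and RHNO1 were nearest to TUT7, TBC1D19 and PCMTD1 to TENT2, GUCY1B1 and SCML1 to TENT4A, and ACTR3B and HDDC2 to MTPAP, at differences of 0.016 to 0.060. With 6 libraries and this many genes, near matches are a description of these libraries.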

How the data were processed

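RNA of 3 D391N and 3 control libraries was depleted of rRNA and sequenced in single-end reads by the authors, who removed adapters with cutadapt, used Segemehl for alignment to Ensembl hg38 transcripts and BitSeq for the levels (versions not given in the sources used here). The deposited values are natural log RPKM (posterior mean) and, as a score, its posterior variance. Their differential expression test needs posterior samples and was not repeated. RPKM was summed by gene, changed to log2(RPKM + 0.1) and, for a mean of at least 1 RPKM, tested with limma 3.58.1 (empirical Bayes with trend, R 4.3.3) over all genes or transcripts, with Benjamini-Hochberg adjustment and a threshold of 0.05. Reads were estimated from the posterior variance, which also holds assignment error, and the depth of a library from the level given to unread transcripts. They cover counting and assignment error only. No pair of libraries was identical. The procedure was tested on simulated data. Other pseudocounts, filters, scalings, a replicate block, other sums and each library left out were tried. Sums of RPKM times length and sums over transcripts with at least 3 reads were chosen after seeing the data. The enzymes and gene lists were chosen with earlier results of these data known. Named were the 7 enzymes, for each the 2 most abundant transcripts and those past the threshold or without overlap and at least 2-fold apart, DIS3L2, list genes past the threshold or else the 2 with the largest difference, and the 2 most alike genes of each enzyme. Any further gene or transcript was named with its values known. Positions, names and sequences are from GENCODE 44 on GRCh37, which held 90.2% of the transcripts. Symbols were found for 88.2% of gene identifiers.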

Additional observations from a re-analysis of the deposited data

How the results depend on the processing

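None of the 7 enzymes passed the gene-level test under the alternatives tried, except TUT4 without D391N replicate 1. TUT4 (0.35 to 0.84), TENT4B (0.10 to 0.62) and TUT1 (-0.97 to -0.21) kept their direction of log2 fold change under all alternatives run, whereas TUT7, TENT2, TENT4A and MTPAP did not. With each library left out in turn, the log2 fold change ranged from 0.46 to 0.84 for TUT4, -0.0020 to 0.18 for TUT7, -0.19 to 0.16 for TENT2 and -0.055 to 0.15 for MTPAP. Median centring gave 0.21 for TENT2 and 0.088 for TENT4A. TENT2 was at 0.0046 when only transcripts with a mean of at least 3 reads were summed and at 0.48 for its most abundant transcript alone. MTPAP was at -0.39 in the sum over protein coding transcripts and at -0.21 for its most abundant transcript alone. The filter at a mean of 5 RPKM removed TUT1.

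The number of genes called was 29 and depended on the setting. It was 61 and 16 with pseudocounts of 1 and 0.01, 18 without a filter, 6 with a mean of at least 5 RPKM, 14 with median centring and 17 with quantile normalization. It was 593 for sums over protein coding transcripts, 18 for the most abundant transcript of each gene and 646 for reads scaled to library size, and 2 to 2267 with a library left out, the highest without D391N replicate 1. At the transcript level 33 were called, 142 with a pseudocount of 1, 18 without a filter, 17 with a mean of at least 5 RPKM, 52 with limma without trend, and 2 to 4984 with a library left out. Among the partners, 0 to 1 gene was called with a library left out. The cause of these differences was not tested.

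Whether same-numbered libraries were prepared together is not given in the sources used here. The deviations of same-numbered libraries from their condition means correlated at 0.070, 0.22 and -0.11. These values cannot decide it, since the wide differences among the D391N libraries could hide a shared part. With a replicate block 2 genes and 7 transcripts were called, none of them among the 7 enzymes or their named transcripts, and no other call on these changed.

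The log2 ratio of TENT2 to TENT4A was -0.0044 in the controls alone, -1.95 in sums over protein coding transcripts and -0.92 for the most abundant transcripts. TENT4B to MTPAP was -0.13 in the controls alone and -0.054 to 0.095 with a library left out. In sums over protein coding transcripts, 4 other pairs of neighbours passed the adjusted exact test: TUT4 to TENT2 at 2.57, TENT4A to TUT7 at 0.39, TUT7 to TENT4B at 0.62 and MTPAP to TUT1 at 3.11. For the most abundant transcripts these were TUT4 to TENT2 at 0.89, TENT4A to TUT7 at 1.25 and MTPAP to TUT1 at 2.75. Each pair that passed was at the smallest p the exact test can give, 0.031. Whether this p passes after adjustment depends on how many pairs reach it. Passing here is therefore no stronger evidence for a pair than the same p in the main order.

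With a library left out, the share of the most abundant transcript differed by -5.40 to 0.50 percentage points for TENT4A and by -9.43 to 0.79 for TENT4B. For TUT1 no share could be had above the level filter, since it has 1 transcript there. The log2 fold change ranged from -0.26 to 0.060 for TUT7-206, -0.89 to 0.036 for TENT2-208, -0.15 to 0.47 for TENT4A-203, -0.043 to 0.40 for TENT4B-202 and -0.22 to 0.22 for TENT4B-203. TUT1 had the fewest estimated reads of the 7 enzymes, at 11 to 62 per library, and these also hold assignment error.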
